A study of Mus musculus with 15 samples.

Results

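The 33 genes described here are those of the glucocorticoid response in brain: the genes of both corticosteroid receptors, *Nr3c1* and *Nr3c2*, *Hsd11b1*, which encodes the enzyme that makes the active hormone inside cells, and 30 genes known as inducible by glucocorticoids. They were chosen by name out of 55471 gene IDs counted, from what is known of them but with earlier results of these data known. The shares of the 33 genes given below are therefore descriptions and not tests of a list set blind. All 33 were among the 16171 genes that passed the filter on low counts (above 1 CPM, which is a gene's count relative to the library total on the usual common scale, in at least 3 of the 15 libraries). Their values come from poly(A) RNA-seq of whole hippocampi of female mice aged 3 months, 3 libraries per group in 2 batches, in a study of Alzheimer's disease models that asked how *App* mutations and human *APOE4* alter hippocampal gene expression. In batch 1, DM (double mutant) mice were homozygous for the *App* NL-G-F knock-in mutations and carried APOE4 heterozygously. APP-TKI mice of the same batch were homozygous for the *App* mutations alone, and WT mice carried neither. In batch 2, ApoE4 mice had human *APOE4* knocked in at *Apoe*, also heterozygous by the labels, so that both DM and ApoE4 mice kept a mouse *Apoe* allele, and batch 2 had WT mice of its own. WT mice were of the C57BL/6JInv strain, and DM mice came from mating the 2 mutant lines. The labels number the libraries without naming animals, so the p-values measure the spread between libraries.

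Glucocorticoids are the adrenal hormones of the stress response and of the daily rhythm; in mice the main one is corticosterone. The hormone enters cells and binds the mineralocorticoid receptor, which has the higher affinity, and the glucocorticoid receptor. Both are abundant in the hippocampus, which takes part in the feedback that limits hormone release. Without hormone the glucocorticoid receptor is held in the cytoplasm with HSP90 and immunophilins such as FKBP51. With hormone it moves to the nucleus, binds DNA at a palindromic element and induces, among others, *Fkbp5*, *Sgk1*, *Tsc22d3*, *Zbtb16* and *Per1*, in neurons and in glia.

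The palindromic element, read here as AGAACA and TGTTCT with 3 bases of any kind between them, was searched on both strands in RefSeq promoter windows of GRCm38.p6, each 300 bases long, of which 250 lie before and 50 after an annotated start. Windows were held for 27 of the 33 genes (41 windows), and *Angptl4*, *Rasd1*, *Zbtb16*, *Nr3c1*, *Cebpd* and *Sgk3* were not among them. The full element was found at *Sgk1* alone among the 27, and in 0.0111% of 27025 genes. A shortened form, GAACA and TGT with 3 bases of any kind between them, which was settled on after its matches had been seen, was found at *Sgk1*, *Mt1*, *Map3k6* and *Fam107a*, which is 14.8% of the 27 genes, against 1.12% of all genes. The 4 matches are printed because they hold the longest forms of the receptor's element found in these windows. Capitals mark the full element in *Sgk1* and, in the other 3, the match, given in the strand of the gene, in which the shortened form reads in its reverse complement. The *Sgk1* and *Fam107a* starts lie inside the longer gene spans of the GENCODE annotation. The *Sgk1* stretch is chr10:21993656-21993760 on the plus strand, with the element 189 to 175 bases before the start. The *Mt1* stretch is chr8:94178952-94179052 on the plus strand, the *Map3k6* stretch chr4:133240594-133240694 on the plus strand and the *Fam107a* stretch chr14:8309840-8309940 on the minus strand, with matches beginning 92, 179 and 118 bases before the starts.
Sgk1: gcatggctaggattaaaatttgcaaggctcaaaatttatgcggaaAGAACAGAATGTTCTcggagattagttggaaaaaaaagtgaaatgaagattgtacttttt
Mt1: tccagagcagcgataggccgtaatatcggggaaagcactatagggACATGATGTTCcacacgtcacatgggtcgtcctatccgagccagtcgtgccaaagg
Map3k6: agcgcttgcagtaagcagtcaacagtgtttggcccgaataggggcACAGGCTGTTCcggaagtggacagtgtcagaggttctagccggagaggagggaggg
Fam107a: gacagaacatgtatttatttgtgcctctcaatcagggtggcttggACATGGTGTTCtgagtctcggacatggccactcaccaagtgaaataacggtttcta
In all, 14 motifs were searched, and a match is a description of letters and not a measured binding site. The nested forms of the element, GAACA and TGTTC with 3 free bases between them and ACANNNTGT (N is any base), were found at 1 and 5 of the 27 genes, against 0.0555% and 7.9% of all genes. AGAACA, the element's letters before its 3 free bases, was found at 5 of the 27 (18.5%), against 21.3% of all genes. A further receptor motif, ACAAA and TGTTC with 2 free bases between them, was found at 0 of the 27 genes, against 0.104% of all genes. The motifs named for other factors or for core promoters were CACGTG (4 of the 27 genes, against 8.09% of all), TGACGTCA (1, against 2.03%), GGGGCGGGG (11, against 12.9%), CCAAT (15, against 41.1%), TATAAA (3, against 15.7%), TGCGCCC (1, against 5.04%), TTCNNGAA (4, against 9.6%) and TGCACAC (4, against 5.02%).

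Library totals ran between 32754717 and 44630808 counts. The 8 neuronal and 8 hippocampal neuron markers all passed the filter, which shows that their RNA was present but does not check the tissue label. With edgeR's quasi-likelihood test at a Benjamini-Hochberg adjusted p under 0.1, 2 genes of 16171 passed in DM against WT (0.0124%), 1 in APP-TKI against WT (0.00618%) and 0 in DM against APP-TKI and in ApoE4 against WT (0.0%), with 736, 576, 611 and 969 genes at an unadjusted p under 0.05. None of the genes past the adjusted threshold was among the 33. By the Wald test of DESeq2 the counts were 50, 25, 18 and 48, and by edgeR's robust likelihood ratio test 136, 50, 53 and 125. Several libraries of batch 2 stood apart. Summed choroid plexus markers reached 1917, 82.4 and 77.6 CPM in the ApoE4 libraries, against 101, 53.9 and 1609.5 CPM in the WT libraries, so that ApoE4 library 1 and WT library 3 held far more than the other 4. Summed pituitary markers were 0.268, 2.21 and 0.719 CPM in the ApoE4 libraries, against 6.14, 10.1 and 17.3 CPM in the WT libraries, higher in all 3 WT libraries. WT library 3 was also apart for *Rora*, a nuclear receptor gene singled out after its values were seen, with 41.1, 47.1 and 109 CPM in the 3 WT libraries.

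In level, the 33 genes spanned a wide range in hippocampus. Per kilobase of exon, the mean of the WT libraries of batch 2 was highest for the metallothionein genes *Mt2* and *Mt1* (168 and 124 CPM per kb) and for *Fam107a* (107). *Klf9* (52.7), *Ddit4* (35.5), *Sdc4* (35.4) and *Sgk1* (29.9) followed, and *Angptl4* (0.584), *Plin4* (0.669), *Map3k6* (0.766), *Sgk3* (0.831) and *Hif3a* (0.941) were lowest. *Nr3c2* stood above *Nr3c1* in this measure (29.3 against 13.9 CPM per kb). Opposite-strand genes share exon bases with *Bcl6* (*Gm37419*), *Cdkn1a* (*AC167363.2*), *Cebpd* (*Spidr*), *Mt2* (*Gm45774*), *Nr3c2* (*Gm10649*), *Plin4* (*Hdgfl2*), *Sult1a1* (*Sgf29*) and *Txnip* (*Gm15441*). Whether reads were counted by strand is not stated, so values of these pairs may hold reads of both.

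In ApoE4 hippocampus, most glucocorticoid-inducible genes were higher than in WT. Of the 33 genes, 30 had a log2 fold change above 0, against 45.9% of all genes tested. At an unadjusted p under 0.05, 17 were higher (3.23% of all genes) and 1, *Nr3c1*, was lower (2.76%). The median log2 fold change was 0.25 over the 33 genes and 0.31 over the 30 inducible ones, against -0.01 over all genes. For 18 genes every ApoE4 library was above every WT library, as was so for 5.39% of all genes, and for 1 every ApoE4 library was below (6.79%). No gene of the 33 passed the adjusted threshold in edgeR's quasi-likelihood test (0 of 33, with 18 at an unadjusted p under 0.05, as were 5.99% of all genes). DESeq2 called 9 of them and 48 of all 16171 genes, with 20 and 849 at an unadjusted p under 0.05. The robust likelihood ratio test called 13 of them and 125 of all genes, with 22 and 1028 at that p. Without the filter on low counts, edgeR's quasi-likelihood test called 5 of them and 16 of 36318 genes. In bulk tissue, a change in the number of cells of a type and a change in the RNA per cell cannot be told apart.

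**Figure D1:**
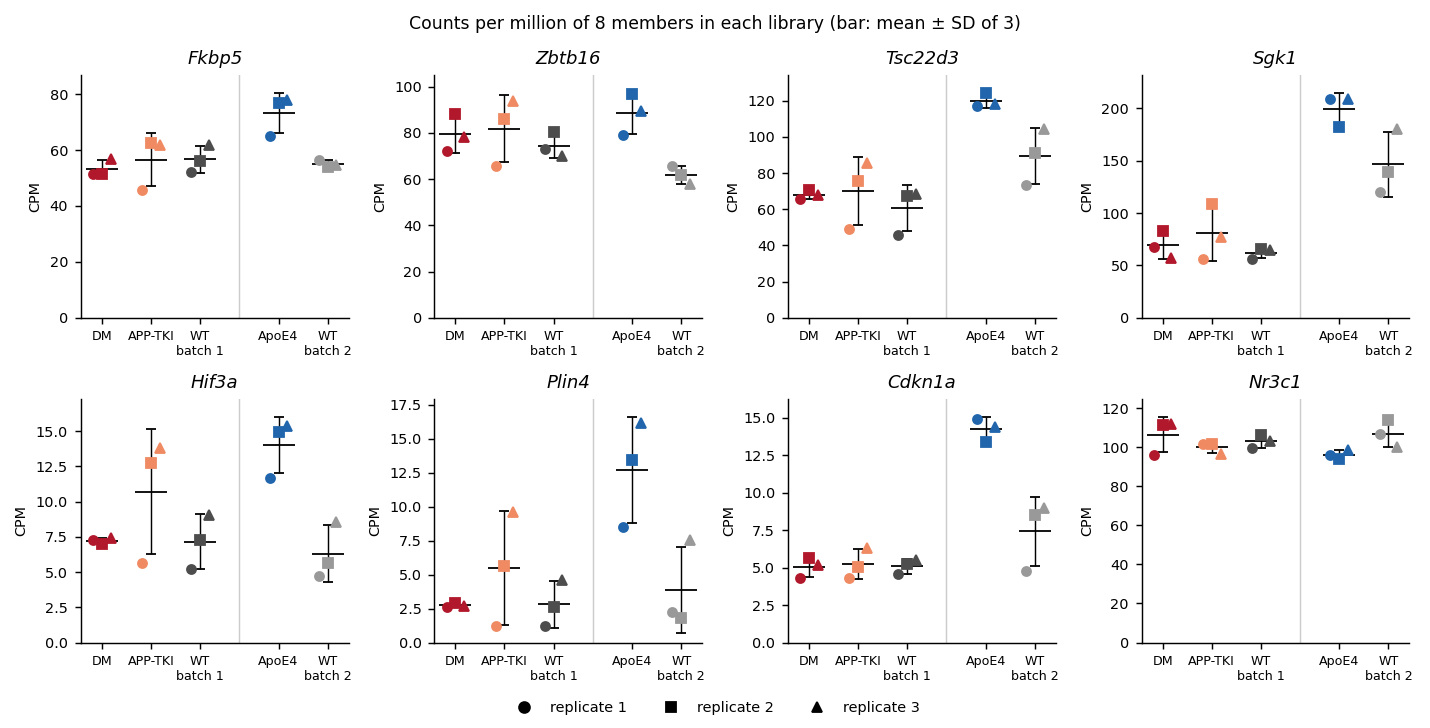
CPM (vertical axes, each from 0) of 8 genes in the 15 libraries, grouped as DM, APP-TKI and WT of batch 1 and ApoE4 and WT of batch 2; points are libraries and bars the mean ± SD of 3 libraries. The 3 ApoE4 libraries lie above the 3 WT libraries of batch 2 for every gene shown except *Nr3c1*, where they lie below, while the groups of batch 1 overlap.

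The receptors and the enzyme did not share the direction of the inducible genes. *Nr3c1*, the glucocorticoid receptor, had 96.2, 93.9 and 98.5 CPM in ApoE4 libraries, against 107, 114 and 100.0 CPM in WT libraries, a log2 fold change of -0.15 ± 0.06 (here and below, the value after ± is the standard error, SE, of a log2 fold change). All 3 ApoE4 libraries were below the lowest WT library, but the highest of them only just. *Nr3c2*, the mineralocorticoid receptor, had 174, 183 and 192 CPM in ApoE4 libraries, against 203, 189.6 and 176 CPM in WT libraries, and the groups overlapped (log2 fold change -0.05 ± 0.06). *Hsd11b1*, which regenerates corticosterone from its inactive 11-keto form, had 32.8, 27.7 and 27.7 CPM in ApoE4 libraries, against 30.1, 28.3 and 29.0 CPM in WT libraries (log2 fold change 0.01 ± 0.08), with overlap again. The adjusted p of edgeR's quasi-likelihood test with Benjamini-Hochberg adjustment for *Nr3c1* was 0.761, and that of DESeq2 was 0.909.

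*Fkbp5* encodes the co-chaperone that lowers the hormone affinity of the glucocorticoid receptor, a short feedback loop, and lies at chr17:28399094-28517527, minus strand (GRCm38). It had 64.9, 77.0 and 78.0 CPM in ApoE4 libraries, against 56.6, 53.8 and 54.8 CPM in WT libraries, and averaged 73.3 ± 7.30 and 55.0 ± 1.40 CPM (SD, n = 3 each). The lowest ApoE4 library was above the highest WT library, and the spread among WT libraries was small. Its log2 fold change was 0.41 ± 0.08, with an adjusted p of 0.669 in edgeR's quasi-likelihood test with Benjamini-Hochberg adjustment and of 0.00251 in DESeq2.

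Among the 8 transcription regulators, 6 were higher at an unadjusted p under 0.05 (*Zbtb16*, *Hif3a*, *Tsc22d3*, *Klf9*, *Nfkbia* and *Klf15*), 0 were lower, and the median log2 fold change was 0.31. *Zbtb16* (chr9:48654297-48836222, minus strand), which encodes the zinc finger repressor PLZF, had 79.1, 96.9 and 89.4 CPM in ApoE4 libraries, against 65.6, 61.8 and 58.0 CPM in WT libraries. The groups were well apart, at 88.5 ± 8.95 and 61.8 ± 3.82 CPM (SD, n = 3 each). Its log2 fold change was 0.52 ± 0.08, and of the 33 genes *Zbtb16* had the smallest p. *Hif3a* (chr7:17031507-17062427, minus strand), a relative of the hypoxia-inducible factors, had 11.7, 14.9 and 15.4 CPM in ApoE4 libraries, against 4.70, 5.67 and 8.59 CPM in WT libraries, a log2 fold change of 1.15 ± 0.22 (2.21-fold). No library overlapped, and WT library 3 was nearest to the ApoE4 group. *Hif3a* lies on chromosome 7, 2.63 Mb from *Apoe*, where the knock-in was made, and whether sequence flanking the knock-in bears on its level was not tested. *Tsc22d3* (chrX:140539528-140600659, minus strand), whose product GILZ holds back NF-κB and AP-1, had 117, 125 and 118 CPM in ApoE4 libraries, against 73.6, 90.9 and 105 CPM in WT libraries (log2 fold change 0.42 ± 0.11). The ApoE4 libraries lay close together, while the WT libraries were spread over a range wider than the gap to them. *Nfkbia*, which encodes the NF-κB inhibitor IκBα, had 31.4, 28.2 and 27.4 CPM in ApoE4 libraries, against 18.9, 23.0 and 25.1 CPM in WT libraries (log2 fold change 0.37 ± 0.11). The groups did not overlap for *Nfkbia*, nor for both Krüppel-like factors. *Klf9* had 282, 279 and 314 CPM in ApoE4 libraries, against 241, 259.5 and 259.8 CPM in WT libraries (log2 fold change 0.20 ± 0.06). *Klf15* had 39.0, 37.8 and 35.7 CPM in ApoE4 libraries, against 27.6, 31.3 and 35.5 CPM in WT libraries (log2 fold change 0.25 ± 0.09), with ApoE4 library 3 only just above WT library 3. The repressor gene *Bcl6* and *Cebpd*, a C/EBP family gene, had log2 fold changes of 0.08 ± 0.05 and 0.07 ± 0.10. The adjusted p of edgeR's quasi-likelihood test with Benjamini-Hochberg adjustment was 0.669 for *Zbtb16* and *Hif3a* and 0.761 for the other 4. DESeq2's was 0.000164 for *Zbtb16*, 0.000419 for *Hif3a* and 0.062 for *Tsc22d3*, but 0.257 for *Nfkbia*, 0.296 for *Klf9* and 0.663 for *Klf15*.

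Of the 7 genes of kinases, signalling and growth control, 4 were higher at an unadjusted p under 0.05 (*Sgk1*, *Sgk3*, *Rasd1* and *Cdkn1a*), 0 were lower, and the median log2 fold change was 0.39. *Sgk1* (chr10:21882184-21999903, plus strand), the kinase gene with the full element in its window, had 209, 182 and 209 CPM in ApoE4 libraries, against 119.7, 139 and 181 CPM in WT libraries (log2 fold change 0.45 ± 0.14). The lowest ApoE4 library, library 2, was only just above the highest WT library, library 3, so the groups were nearly joined. Its paralog *Sgk3* had 15.1, 13.0 and 18.6 CPM in ApoE4 libraries, against 12.1, 10.8 and 12.8 CPM in WT libraries (log2 fold change 0.39 ± 0.14). *Rasd1*, named for its induction by dexamethasone and encoding a Ras-like GTPase, had 37.7, 36.4 and 44.9 CPM in ApoE4 libraries, against 29.6, 29.2 and 31.0 CPM in WT libraries (log2 fold change 0.41 ± 0.08). Here the WT libraries were close together and all ApoE4 libraries stood clear of them. *Cdkn1a* (chr17:29090976-29100727, plus strand), which encodes the cell cycle inhibitor p21, had 15, 13.4 and 14.4 CPM in ApoE4 libraries, against 4.78, 8.51 and 9.0 CPM in WT libraries, a log2 fold change of 0.94 ± 0.22 (1.92-fold). The ApoE4 libraries varied little, and WT library 1 was low within its own group. *Ddit4*, which encodes an inhibitor of mTORC1, did not reach that p, although its 3 ApoE4 libraries (69.3, 66.2 and 67.8 CPM) were all above its 3 WT libraries (56.6, 64.6 and 65.9 CPM). *Errfi1*, which encodes an inhibitor of the EGF receptor, and the kinase gene *Map3k6* had log2 fold changes of 0.08 ± 0.05 and -0.13 ± 0.24. Adjusted p-values of edgeR's quasi-likelihood test with Benjamini-Hochberg adjustment were 0.669 for *Rasd1* and 0.761 for *Sgk1*, *Sgk3* and *Cdkn1a*. Those of DESeq2 were 0.0214 for *Rasd1*, 0.00754 for *Cdkn1a*, 0.129 for *Sgk1* and 0.595 for *Sgk3*.

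Of the 5 genes of fuel use and lipid handling, *Plin4* and *Pdk4* were higher at an unadjusted p under 0.05. *Plin4* (chr17:56100591-56109803, minus strand), a lipid droplet coat gene, had 8.47, 13.5 and 16.1 CPM in ApoE4 libraries, against 2.21, 1.83 and 7.54 CPM in WT libraries, a log2 fold change of 1.71 ± 0.53, which was the largest of the 33 genes. The groups did not overlap, but both were wide, and the value moved to 2.65 without WT library 3 and to 1.38 without WT library 2. *Pdk4*, which encodes a kinase that inhibits pyruvate dehydrogenase, had 20.8, 19.0 and 20.6 CPM in ApoE4 libraries, against 13.7, 14.0 and 18.3 CPM in WT libraries (log2 fold change 0.39 ± 0.12). The ApoE4 libraries were close together above the highest WT library, library 3. *Angptl4*, an inhibitor of lipoprotein lipase, the triglyceride lipase gene *Pnpla2* and the sulfotransferase gene *Sult1a1* had log2 fold changes of 0.19 ± 0.18, 0.24 ± 0.16 and 0.17 ± 0.32, with overlapping groups. Of the 3 arrestin-fold genes, *Arrdc2* had 23.4, 22.6 and 25.2 CPM in ApoE4 libraries, against 11.8, 13.2 and 20.3 CPM in WT libraries (log2 fold change 0.65 ± 0.19), without overlap. Its paralog *Arrdc3* had 67.9, 65.4 and 75.4 CPM in ApoE4 libraries, against 61.2, 65.0 and 65.6 CPM in WT libraries (log2 fold change 0.12 ± 0.06), with ApoE4 library 2 below WT library 3. *Txnip*, which encodes the thioredoxin-binding member of the fold, had 42.3, 33.3 and 47.8 CPM in ApoE4 libraries, against 23.6, 31.0 and 40.0 CPM in WT libraries (log2 fold change 0.38 ± 0.20), and the groups overlapped. Neither metallothionein gene reached that p, with log2 fold changes of 0.07 ± 0.11 for *Mt1* and 0.09 ± 0.10 for *Mt2*. The adjusted p of edgeR's quasi-likelihood test with Benjamini-Hochberg adjustment was 0.761 for *Plin4*, *Pdk4* and *Arrdc2*. DESeq2's was 0.657 for *Plin4*, 0.306 for *Pdk4* and 0.0912 for *Arrdc2*.

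Of the 4 genes of the cell surface and cytoskeleton, 3 were higher at an unadjusted p under 0.05. *Lrrc8c*, which encodes a subunit of volume-regulated anion channels, had 40.1, 42.0 and 47.7 CPM in ApoE4 libraries, against 33.1, 31.1 and 31.4 CPM in WT libraries (log2 fold change 0.44 ± 0.07). *Mertk*, a receptor tyrosine kinase gene of phagocytosis, had 48.0, 57.5 and 50.3 CPM in ApoE4 libraries, against 41.2, 36.8 and 41.1 CPM in WT libraries (log2 fold change 0.39 ± 0.08). For both, the WT libraries lay in a narrow band below all ApoE4 libraries. *Sdc4*, the gene of the heparan sulfate proteoglycan syndecan-4, had 109, 108 and 104 CPM in ApoE4 libraries, against 82.9, 84.5 and 103 CPM in WT libraries (log2 fold change 0.25 ± 0.08), and WT library 3 was within a few CPM of the ApoE4 group. *Fam107a*, an actin-binding protein gene, had 0.21 ± 0.12 on the log2 scale, with WT library 3 above all ApoE4 libraries. Adjusted p-values of edgeR's quasi-likelihood test with Benjamini-Hochberg adjustment were 0.669 for *Lrrc8c*, 0.68 for *Mertk* and 0.761 for *Sdc4*. DESeq2 gave 0.0013 for *Lrrc8c*, 0.018 for *Mertk* and 0.429 for *Sdc4*.

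**Figure D2:**
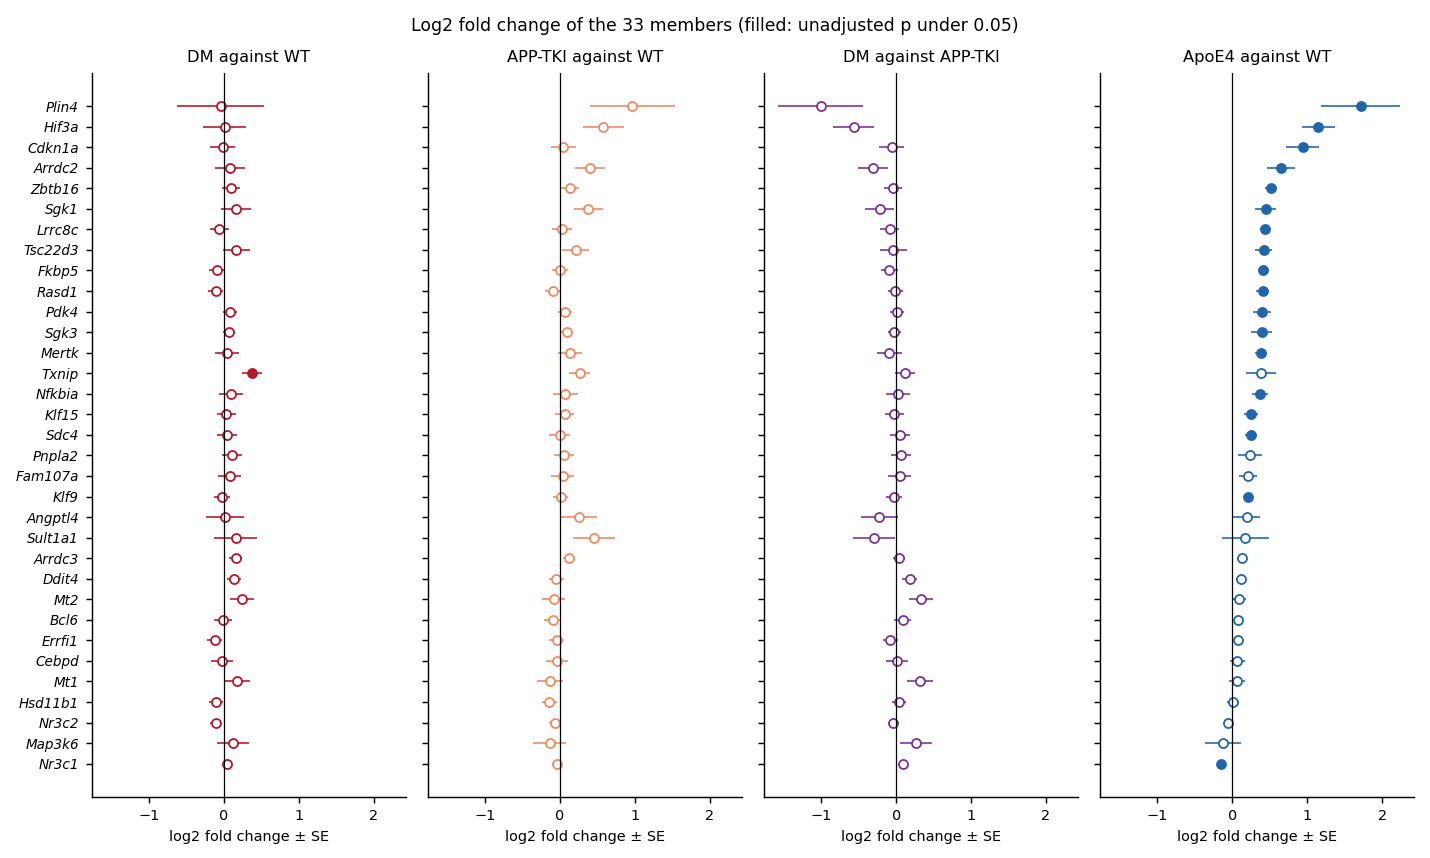
Log2 fold change ± SE of each of the 33 genes for ApoE4 against WT and for the 3 comparisons of batch 1. Genes are ordered by their value in ApoE4 against WT, and filled points have an unadjusted p under 0.05. For ApoE4 against WT, 30 of the 33 values lie above 0 and 18 are filled, while in DM against WT only *Txnip* is filled and in the other 2 comparisons none is.

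The inducible genes also tended to stand together within single libraries. The sum of the 30 inducible genes was 2226, 2234 and 2303 CPM in the ApoE4 libraries, against 1698, 1809.5 and 2119 CPM in the WT libraries of batch 2, with WT library 3 nearest to the ApoE4 group. That library was the highest of its group for 25 of the 30 genes, whereas it was the highest for 39.1% of all genes, and WT library 1 was the lowest for 21 of the 30, against 36.7% of all genes. The median log2 difference of the 30 genes to the mean of the WT libraries was 0.32, 0.27 and 0.31 in the ApoE4 libraries, against -0.16, -0.04 and 0.19 in the WT libraries. In the ApoE4 libraries 30, 28 and 28 of the 30 genes were above the WT mean. Without WT library 3, 24 of the 33 genes were at an unadjusted p under 0.05 (1039 of all 16171 genes) and the median over the 33 was 0.41. Without WT library 2 the count was 13 (655 of all genes) and without ApoE4 library 1 it was 15 (907 of all genes). The lowest median, 0.17, was that without WT library 1. *Zbtb16*, *Lrrc8c*, *Fkbp5*, *Hif3a*, *Rasd1*, *Mertk*, *Cdkn1a*, *Tsc22d3*, *Arrdc2*, *Nfkbia*, *Pdk4*, *Klf9* and *Plin4* stayed at that p with each of the 6 libraries left out in turn, and *Nr3c1* and *Klf15* did so for 2 of the 6.

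**Figure D3:**
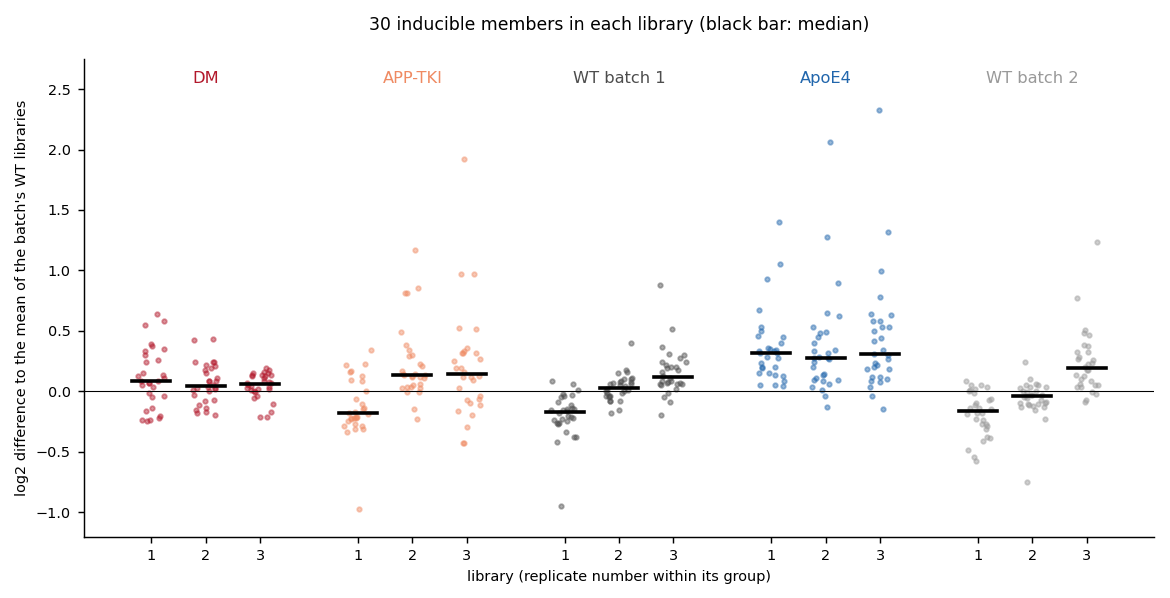
Log2 difference of each of the 30 inducible genes to the mean of the WT libraries of the same batch (pseudocount 0.1 CPM), in each of the 15 libraries; points are genes and the black bar is the median. The medians of the 3 ApoE4 libraries are 0.32, 0.27 and 0.31, against -0.16, -0.04 and 0.19 in the WT libraries of batch 2, and in batch 1 library 1 of APP-TKI (-0.18) and of WT (-0.17) lie low.

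Other genes of the pathway and of neighbouring responses were read in the same comparison. Of 18 genes of receptor chaperones and coregulators, 17 were tested, and in ApoE4 against WT their log2 fold changes had a median of -0.01. Of 10 genes of the stress hormone axis, 5 passed the filter, and *Pomc*, the precursor gene of ACTH, was lower at an unadjusted p under 0.05, with 0.849, 0.989 and 0.812 CPM in ApoE4 libraries, against 1.95, 3.40 and 6.24 CPM in WT libraries (log2 fold change -2.13 ± 0.41). The WT libraries were the higher ones for *Pomc*, as they were for the pituitary markers, and the part of pituitary RNA in it was not tested. All 3 WT values were above the 1 CPM of the filter, so the WT libraries alone were enough for *Pomc* to pass. Its lower value in the ApoE4 libraries is therefore not read as a result. Of 19 clock genes, 3 were higher at that p (*Per2*, *Per3* and *Tef*) and 1 was lower (*Rorb*), beside 3.23% and 2.76% of all genes. *Per2* had 43.2, 46.0 and 52.2 CPM in ApoE4 libraries, against 38.3, 37.9 and 33.8 CPM in WT libraries (log2 fold change 0.36 ± 0.08), without overlap. *Per1*, a clock gene with known glucocorticoid induction that was singled out after its values were seen, had a log2 fold change of 0.01 ± 0.07. Of 19 immediate early genes, 15 had a log2 fold change below 0, 0 were higher and 6 were lower at that p (2.76% of all genes were lower), among them *Fos*, *Btg2* and *Ier2*, and the list median was -0.16. *Fos*, an activity-induced transcription factor gene, had 14.8, 11.3 and 11.8 CPM in ApoE4 libraries, against 20.8, 24.9 and 21.0 CPM in WT libraries (log2 fold change -0.81 ± 0.12), without overlap. None of the genes of these 4 lists passed the adjusted threshold in edgeR's quasi-likelihood test. Whether clock phase or neuronal activity had a part in the values of the 33 genes was not tested.

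Cell type markers were read beside these values. Of 12 astrocyte, 12 oligodendrocyte, 7 microglial and 8 neuronal markers, 0 were at an unadjusted p under 0.05 in ApoE4 against WT by edgeR's quasi-likelihood test, and 1 of 8 hippocampal neuron markers was higher (*Wfs1*). Summed astrocyte markers were 7368, 7009 and 6728 CPM in ApoE4 libraries, against 6855, 6697 and 7151 CPM in WT libraries, with overlap. Summed endothelial markers were 148, 126 and 109.8 CPM in ApoE4 libraries, against 162, 139.8 and 131 CPM in WT libraries, and 2 of 10 (*Cldn5* and *Tek*) were lower. Of 9 pituitary markers only *Prl* and *Gh* passed the filter, *Gh* solely through the WT libraries of batch 2, so a lower value elsewhere was set by the filter and is not read as a result. Of the 2 libraries with high choroid plexus markers, ApoE4 library 1 had the lowest sum of the 30 genes in its group and WT library 3 the highest in its own. All 5 ependymal markers tested had log2 fold changes above 0 in ApoE4 against WT, with a median of 0.58 and 0 at an unadjusted p under 0.05, and their list summed to 47.8, 40.6 and 75.7 CPM in ApoE4 libraries, against 23.2, 34.9 and 55.3 CPM in WT libraries, with overlap. All 5 fibroblast markers tested had log2 fold changes below 0, with a median of -0.26 and 0 at that p. Their list summed to 58.0, 69.5 and 39.0 CPM in ApoE4 libraries, against 54.3, 77.9 and 84.6 CPM in WT libraries, with overlap. The part of these cells in the values of the 33 genes was not tested.

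In DM hippocampus, the libraries of all but 1 of the 33 genes overlapped those of WT. At an unadjusted p under 0.05, 1 of the 33, *Txnip*, was higher than in WT (3.69% of all genes), 0 were lower (0.866%), and the median log2 fold change was 0.05. *Txnip* had 18.7, 17.3 and 14.2 CPM in DM libraries, against 10.9, 12.1 and 15.8 CPM in WT libraries (log2 fold change 0.38 ± 0.14), and DM library 3 was below WT library 3. Its adjusted p in edgeR's quasi-likelihood test with Benjamini-Hochberg adjustment was 0.914, and without WT library 1 no gene of the 33 was at the unadjusted p and the median over the 33 was -0.05, while without WT library 3 it was 0.13. *Arrdc3* was the only gene of the 33 whose libraries did not overlap, the DM libraries being the higher ones (7.29% of all genes), with 46.9, 51.5 and 47.4 CPM in DM libraries, against 38.8, 46.7 and 45.4 CPM in WT libraries (log2 fold change 0.16 ± 0.08). Same-numbered DM and WT libraries of batch 1 deviated together, and in a fit with a block for that number *Txnip* was again the only gene of the 33 at the unadjusted p, while 11 genes of all tested passed the adjusted threshold in place of 2.

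Both receptors and the usual reporters of glucocorticoid action overlapped between DM and WT. *Nr3c1* had 96.2, 111 and 112 CPM in DM libraries, against 99.7, 106 and 103 CPM in WT libraries (log2 fold change 0.05 ± 0.07), and *Nr3c2* had 162, 186 and 186 CPM, against 203, 188 and 186 CPM (log2 fold change -0.11 ± 0.08). *Hsd11b1* had 24.1, 30.9 and 28.7 CPM in DM libraries, against 26.9, 31.1 and 32.1 CPM in WT libraries (log2 fold change -0.11 ± 0.10). *Fkbp5* had 51.3, 51.3 and 56.8 CPM in DM libraries, against 52.3, 56.0 and 61.7 CPM in WT libraries (log2 fold change -0.09 ± 0.11). Each of these differences was within 2 SE of 0, and their signs were mixed. *Zbtb16* had 72.3, 88.3 and 78.0 CPM in DM libraries, against 73.1, 80.4 and 70.1 CPM in WT libraries (log2 fold change 0.09 ± 0.12). *Sgk1* had 67.5, 83.2 and 57.6 CPM in DM libraries, against 56.0, 65.5 and 64.6 CPM in WT libraries (log2 fold change 0.16 ± 0.19). *Tsc22d3* had 65.7, 70.5 and 68.1 CPM in DM libraries, against 45.9, 67.3 and 68.6 CPM in WT libraries (log2 fold change 0.17 ± 0.18). For the last, WT library 1 was low and the other WT libraries lay among the DM libraries. Both metallothionein genes were highest in DM library 1: *Mt1* had 246, 145 and 169 CPM in DM libraries, against 149, 174 and 172 CPM in WT libraries, and *Mt2* had 196, 123 and 130.2 CPM, against 108, 140.2 and 130.3 CPM. Their log2 fold changes were 0.18 ± 0.18 and 0.25 ± 0.16, and without DM library 1 they were -0.07 and 0.00. The sum of the 30 inducible genes was 1906, 1680.4 and 1698 CPM in DM libraries, against 1463, 1698 and 1834 CPM in WT libraries.

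APP-TKI against WT shares the WT libraries with DM against WT. None of the 33 genes was at an unadjusted p under 0.05 by edgeR's quasi-likelihood test (0 of 33, 3.56% of all genes). By the robust likelihood ratio test 5 were, beside 742 of all 16171 genes. The libraries of all 33 overlapped (8.27% of all genes did not), and the median log2 fold change was 0.04. *Hif3a* had 5.63, 12.7 and 13.8 CPM in APP-TKI libraries, against 5.19, 7.25 and 9.05 CPM in WT libraries (log2 fold change 0.58 ± 0.28). *Plin4* had 1.2, 5.66 and 9.61 CPM in APP-TKI libraries, against 1.22, 2.59 and 4.6 CPM in WT libraries (log2 fold change 0.97 ± 0.56), and *Sgk1* had 56.4, 109 and 77.2 CPM, against 56.0, 65.5 and 64.6 CPM (log2 fold change 0.38 ± 0.19). In all 3 genes APP-TKI library 1 was at or near the low end of both groups and libraries 2 and 3 were above all WT libraries. *Fkbp5* had 45.7, 62.5 and 61.6 CPM in APP-TKI libraries, against 52.3, 56.0 and 61.7 CPM in WT libraries. *Zbtb16* had 65.7, 86.0 and 93.7 CPM in APP-TKI libraries, against 73.1, 80.4 and 70.1 CPM in WT libraries, and *Tsc22d3* had 49.0, 75.5 and 85.5 CPM, against 45.9, 67.3 and 68.6 CPM. Library 1 was low in APP-TKI for each of these reporters, and log2 fold changes were 0.00 ± 0.11 for *Fkbp5*, 0.13 ± 0.12 for *Zbtb16* and 0.21 ± 0.18 for *Tsc22d3*. *Nr3c1* had 102, 102 and 96.5 CPM in APP-TKI libraries (log2 fold change against WT -0.04 ± 0.07), *Nr3c2* had 199, 177 and 173 CPM (-0.07 ± 0.08) and *Hsd11b1* had 26.8, 28.2 and 26.5 CPM (-0.14 ± 0.10), all overlapping the WT values given above. The sum of the 30 inducible genes was 1459.8, 1858 and 1802 CPM in APP-TKI libraries. APP-TKI library 1 was the lowest of its group for 19 of the 30 genes (22.8% of all genes), and WT library 1 was the lowest of its own for 24 (40.4%). Without APP-TKI library 1, 7 of the 33 genes were at an unadjusted p under 0.05 (548 of all 16171 genes), all higher, with a median of 0.11. Without APP-TKI library 2, 1 was (559 of all genes), and it was lower, with a median of 0.00. The median was 0.10 without WT library 3 and -0.03 without WT library 1. Without the filter on low counts, edgeR's quasi-likelihood test called 3 of the 33 and 81 of 36318 genes.

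DM against APP-TKI asks what *APOE4* adds to the *App* mutations, and it shares the DM and APP-TKI libraries with the comparisons above. By edgeR's quasi-likelihood test 0 of the 33 genes were at an unadjusted p under 0.05 (3.78% of all genes). There was 1 by DESeq2 (515 of all 16171 genes) and 2 by the robust likelihood ratio test (898 of all genes). All 33 overlapped (7.93% of all genes did not), and the median log2 fold change was -0.02. *Plin4* and *Hif3a* had the lowest values, -1.01 ± 0.56 and -0.57 ± 0.28, and for both, APP-TKI libraries 2 and 3 were above all DM libraries. *Plin4* had 2.62, 2.88 and 2.69 CPM in the DM libraries and *Hif3a* had 7.26, 6.98 and 7.42 CPM, each a narrower range than in APP-TKI. *Mt2* and *Mt1* had the highest, 0.33 ± 0.16 and 0.31 ± 0.18, and DM library 1 was the highest of the 6 libraries for both. *Fkbp5*, *Zbtb16*, *Tsc22d3* and *Sgk1* had log2 fold changes of -0.09 ± 0.11, -0.04 ± 0.12, -0.04 ± 0.18 and -0.22 ± 0.19, and *Nr3c1*, *Nr3c2* and *Hsd11b1* had 0.09 ± 0.07, -0.04 ± 0.08 and 0.04 ± 0.10. The direction rested on single libraries. Without APP-TKI library 1, 5 of the 33 genes were at an unadjusted p under 0.05 (663 of all 16171 genes), all lower in DM, with a median of -0.07. Without APP-TKI library 2, 4 were (350 of all genes), all higher, with a median of 0.03. Without the filter 4 of the 33 and 94 of 36318 genes were called. Endothelial markers moved with the DM group. Summed endothelial markers were 80.6, 78.5 and 103 CPM in DM libraries, against 57.7, 66.4 and 66.0 CPM in APP-TKI libraries and 63.9, 70.6 and 67.3 CPM in WT libraries, and at that p 7 of 10 were higher in DM than in APP-TKI and 5 of 10 higher in DM than in WT. Of 5 ependymal markers tested, 4 were higher in DM than in WT at that p and 0 in DM than in APP-TKI, and the sums were 27.9, 21.6 and 20.9 CPM in DM libraries, against 20.2, 8.97 and 23.0 CPM in APP-TKI libraries, with overlap, and 10.1, 14.0 and 12.4 CPM in WT libraries. The part of such cells in the values of the 33 genes was not tested.

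The lists of receptor chaperones and coregulators, the stress hormone axis, the clock and immediate early genes were read in batch 1 too. Their genes at an unadjusted p under 0.05 are given, with log2 fold changes ± SE where named. In DM against WT, beside 3.69% of all genes higher and 0.866% lower, these were *Abcb1a*, a transporter gene that limits steroid entry (0.48 ± 0.18), *Crhr2*, a receptor gene of the corticotropin-releasing hormone family (0.64 ± 0.27), the clock genes *Npas2* (0.29 ± 0.09) and *Bhlhe40* (-0.25 ± 0.09), and 3 of 19 immediate early genes, all lower. In APP-TKI against WT, beside 3.56% of all genes, they were *Ptges3*, which encodes the co-chaperone p23 (-0.16 ± 0.06), *Crhbp*, a binding protein gene (-0.27 ± 0.10), *Npas2* (0.22 ± 0.09), *Bhlhe40* (-0.30 ± 0.09) and 1 immediate early gene, *Nr4a3* (-0.15 ± 0.06). In DM against APP-TKI, beside 3.78% of all genes, they were *Abcb1a* (0.57 ± 0.18) and 2 immediate early genes, *Btg2* (-0.29 ± 0.12) and *Npas4* (-0.69 ± 0.30). Other cell type markers at that p were few. In DM against WT, 2 of 8 hippocampal neuron markers were lower. Of the markers tested, 2 of 5 fibroblast, 1 of 5 choroid plexus and 1 of 2 pituitary ones were higher there. In APP-TKI against WT, 1 hippocampal neuron marker was lower, and in DM against APP-TKI 2 fibroblast markers were higher.

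The difference between *APOE4* with and without the *App* mutations was tested as DM minus APP-TKI in batch 1 less ApoE4 minus WT in batch 2, over all 15 libraries. Of the 33 genes, 25 had a value below 0, so that the APOE4 difference was smaller or more negative with the *App* mutations, whereas 52.6% of all genes had a value above 0. At an unadjusted p under 0.05, 12 were below 0 (2.79% of all genes) and 1, *Nr3c1*, was above (4.06%). The median was -0.28, against 0.01 over all genes, and it was -0.44 without WT library 3 of batch 2 and -0.20 without WT library 1 of batch 2. None of the 33 passed an adjusted p of 0.1 in edgeR's quasi-likelihood test (0 of 33, with 13 at the unadjusted p, as were 6.85% of all genes). DESeq2 called 1 of them, *Hif3a*, and 26 of all 16171 genes, with 13 and 1060 at the unadjusted p. The robust likelihood ratio test called 7 of them and 121 of all genes, with 16 and 1443 at that p. Without the filter, edgeR's quasi-likelihood test called 11 of them and 393 of 36318 genes. All 13 genes at the unadjusted p in edgeR's quasi-likelihood test were also at it in ApoE4 against WT. This difference reuses the libraries of that comparison and of DM against APP-TKI, so it is not evidence separate from them. Each genotype pair lies within its own batch, so batch and the presence of the *App* mutations cannot be told apart in this difference.

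By size, *Plin4* had the lowest value, -2.72 ± 0.87, followed by *Hif3a* with -1.72 ± 0.40, *Cdkn1a* with -1.0 ± 0.28 and *Arrdc2* with -0.97 ± 0.30 on the log2 scale. The reporters *Zbtb16* and *Fkbp5* had -0.56 ± 0.16 and -0.50 ± 0.15, *Sgk1* had -0.66 ± 0.28, and *Tsc22d3*, which was not at the unadjusted p, had -0.46 ± 0.25. *Lrrc8c*, *Rasd1*, *Sgk3*, *Pdk4* and *Mertk* had -0.53 ± 0.17, -0.42 ± 0.14, -0.41 ± 0.15, -0.38 ± 0.15 and -0.48 ± 0.21. *Nr3c1* had 0.24 ± 0.09, with values below WT in the ApoE4 libraries and overlapping those of APP-TKI in the DM libraries. *Nr3c2*, *Hsd11b1*, *Mt1*, *Mt2*, *Klf9* and *Arrdc3* were not at the unadjusted p, with 0.01 ± 0.11, 0.02 ± 0.13, 0.25 ± 0.24, 0.24 ± 0.22, -0.23 ± 0.14 and -0.09 ± 0.11. *Hif3a*, *Cdkn1a*, *Zbtb16*, *Fkbp5*, *Arrdc2*, *Lrrc8c*, *Plin4*, *Rasd1* and *Nr3c1* stayed at the unadjusted p with each of the 15 libraries left out in turn, whereas *Sgk1* did so for 8 and *Mertk* for 9 of them. Adjusted p-values of edgeR's quasi-likelihood test with Benjamini-Hochberg adjustment were 0.557 for *Hif3a*, 0.627 for *Cdkn1a* and 0.634 for *Zbtb16* and *Fkbp5*. DESeq2's were 0.0268 for *Hif3a*, 0.186 for *Cdkn1a*, 0.249 for *Zbtb16* and 0.292 for *Fkbp5*.

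**Figure D4:**
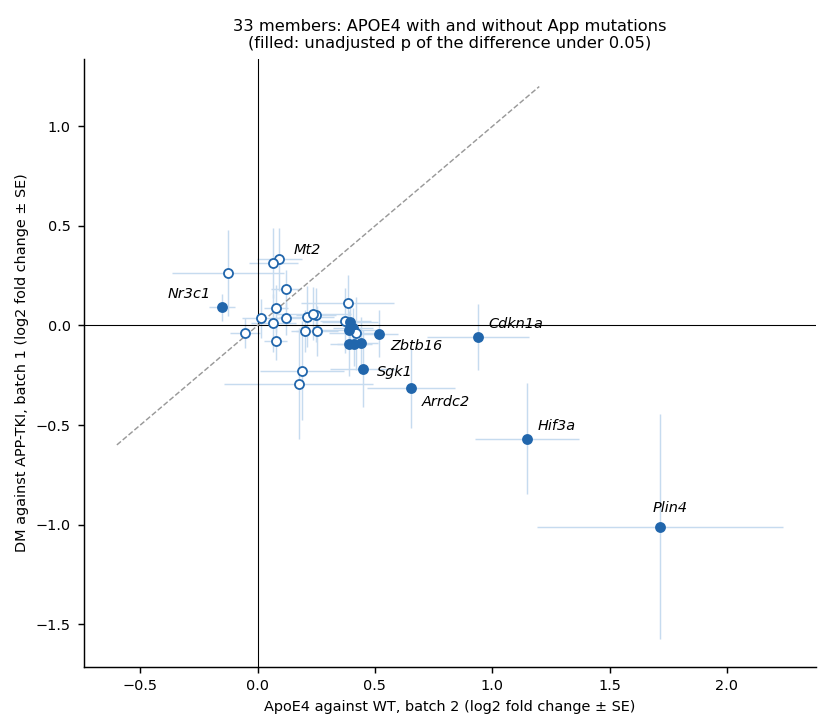
Log2 fold change ± SE of the 33 genes for ApoE4 against WT (horizontal axis) and for DM against APP-TKI (vertical axis); the dashed line marks equal values and filled points have an unadjusted p under 0.05 for the difference. Of the 33 genes, 25 lie below the line, among them *Plin4*, *Hif3a*, *Cdkn1a* and *Arrdc2*, and *Nr3c1* is the filled point above it.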

How the data were processed

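Per the labels and the study's methods, the authors prepared directional poly(A) libraries, trimmed reads with Trimmomatic 0.39, aligned them with STAR 2.7.1a and counted them per gene with HTSeq 0.11.2 on GENCODE M24 with a human *APOE* sequence added. The deposited table holds raw counts of 55471 gene IDs in 15 libraries, human and mouse *APOE* in the same row. Genes above 1 CPM in at least 3 libraries were kept (16171), and libraries were scaled by upper quartile. edgeR 4.0.16 (R 4.3.3) fitted quasi-likelihood models per batch, and over all 15 libraries for the difference between *APOE4* with and without *App* mutations, with Benjamini-Hochberg adjustment over all genes and a threshold of 0.1. The study's methods name a robust likelihood ratio test, which was run as an alternative, as was DESeq2 1.42.0. The script was tested on simulated data. Libraries within groups differed beyond sampling noise. Same-numbered DM and WT libraries deviated together (correlations 0.19 to 0.45), so that comparison is also given with the replicate number as a block. Values in every library are given for the receptors, *Hsd11b1*, *Fkbp5*, *Sgk1*, *Tsc22d3* and *Zbtb16*, for up to 12 genes with an unadjusted p under 0.05 in each comparison, and for their paralogs; a few further genes are given likewise, chosen after their values were seen. A gene of the other lists is not reported here. The genes and lists were chosen with earlier results of these data known. Coordinates are from GENCODE M21 and promoter windows from RefSeq, both on GRCm38. Fits used limma 3.58.1, and figures matplotlib 3.10.9.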

Additional observations from a re-analysis of the deposited data

How the results depend on the processing

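No single gene at an unadjusted p under 0.05 changed its direction under any alternative, but the set of the 33 at that p in batch 1 did: in DM against APP-TKI 5 lower without APP-TKI library 1 and 4 higher without APP-TKI library 2, and in APP-TKI against WT 7 higher and 1 lower. All gene totals that follow are at an adjusted p under 0.1, and values run in the order DM against WT, APP-TKI against WT, DM against APP-TKI, ApoE4 against WT and, where given, the difference with and without *App* mutations. DESeq2 called 50, 25, 18, 48 and 26 genes of all tested, the robust likelihood ratio test 136, 50, 53, 125 and 121, and edgeR's quasi-likelihood test without the filter 171, 81, 94, 16 and 393, among which 0, 3, 4, 5 and 11 were of the 33 genes. Of the 33, at an unadjusted p under 0.05, no filter gave 2, 7, 7, 19 and 19, beside 1434, 1179, 1465, 1622 and 2131 of 36318 genes. The robust test gave 5 in APP-TKI against WT and 2 in DM against APP-TKI, where DESeq2 and filterByExpr gave 1. filterByExpr called 2 genes in APP-TKI against WT. A joint fit of all 15 libraries called 1, 3 and 1 genes in batch 1, with 0, 0 and 1 of the 33 at the unadjusted p, and the 6 libraries compared alone called 30, 1 and 1.

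The replicate block called 11, 9 and 1 genes in batch 1, with 1, 3 and 2 of the 33 at the unadjusted p (950, 871 and 993 of all genes). In ApoE4 against WT it gave 18 of the 33, all higher (796 of all genes at that p). Outside DM against WT, same-numbered libraries did not deviate together in every pair (correlations from -0.32 to 0.23). Whether these libraries share more than a number was not tested.

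Leaving out each library in turn, called genes ran 1 to 29, 0 to 3, 0 to 1, 0 to 1 and 0 to 0, the 29 being without APP-TKI library 2. Genes of the 33 at the unadjusted p ran 0 to 1, 0 to 7, 0 to 5, 13 to 24 and 10 to 17, and the median in ApoE4 against WT 0.17 to 0.41. The cause of these differences was not tested. TMM and median-of-ratios scaling, library size alone, robust dispersions and a threshold of 0.05 kept these counts within 1.5 times. With 3 libraries a group, differences smaller than the spread between libraries were not detectable.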
